A study of Loxodonta africana with 12 samples.

Results

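Of the 16406 annotated rows counted in African elephant (Loxodonta africana) blood, 798 are not marked as protein coding, and the 371 of these whose 12 raw counts sum to at least 600 are described here by transcript type. They comprise 196 of 305 rows typed snoRNA, 96 of 190 pseudogenes, 41 of 155 miRNAs, 28 of 115 snRNAs, 6 of 24 rows typed misc_RNA and 4 of 4 processed pseudogenes, while none of the 5 rRNA rows reached the minimum. Leaving out rows with a p53 or histone description removed 0 rows. The rows were selected on their summed raw counts, so the abundances below are a description and support nothing. At the edge of the minimum, a pseudogene and a U1 row stopped at 596 counts each, whereas a SNORD45 row had 600 and a miRNA row 604.

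The study compared irradiated with untreated elephant cells by sequencing of total RNA. Cells from blood were given 2 Gy or left untreated, and there were 3 libraries in each of 4 groups: irradiated at 24 h, untreated at 24 h, irradiated at 5 h and untreated at 5 h. No allele, strain or animal age is given, and the sources used here do not say whether the 3 libraries of a group came from separate animals or draws, so the p-values below reflect library-to-library spread, part of which may be technical. In bulk RNA of mixed blood cells, fewer cells of a type and less RNA per cell cannot be told apart.

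Small nucleolar RNAs (snoRNAs) guide the chemical modification of ribosomal RNA: the C/D class directs methylation and the H/ACA class pseudouridylation. Their relatives in Cajal bodies, the scaRNAs, act on the spliceosomal snRNAs, which in turn cut introns out of pre-mRNA. In vertebrates most snoRNAs are released from introns of other genes, called hosts, and pseudogenes can share reads with the gene they resemble.

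The snoRNA rows fell into 102 C/D, 69 H/ACA, 12 scaRNA and 13 rows of other names, and held 43.4% of all counts of the 371 rows. Pseudogenes held 42.8%, miRNAs 7.44%, snRNAs 4.66%, processed pseudogenes 1.28% and misc_RNA 0.453%. The misc_RNA rows were telomerase RNA, which is the template of telomerase, 7SK, which restrains the elongation factor P-TEFb, and 4 Y RNAs, which bind the Ro protein. A symbol was given for 230 rows, and the other 141 rows, all miRNAs and pseudogenes, carry an identifier alone. Several symbols recur: 81 snoRNA rows shared 34 symbols and 23 snRNA rows shared 5, among them 11 rows of U1. Reads of near-identical copies can be split between rows, so values of single copies are uncertain. A protein-coding row on the same strand overlapped 124 of the 196 snoRNA rows, 15 pseudogenes, 11 miRNAs and 2 snRNAs. Counts inside such a row cannot be told apart from unspliced RNA of the host. The miRNA rows are 52 to 138 bases long. Whether their counts stem from mature miRNA, a precursor or a neighbouring transcript was not tested.

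The 12 libraries held 18022475 to 38138163 counts each. The share of the 371 rows in them was 1.65% ± 0.366 in irradiated 24 h libraries and 1.53% ± 0.208 in untreated 24 h libraries (SD, n = 3 each; exact permutation test, two-sided, p = 0.7). At 5 h it was 1.30% ± 0.0888 in irradiated libraries and 1.26% ± 0.0876 in untreated libraries (SD, n = 3 each; exact permutation p = 0.7). In untreated libraries the share at 24 h exceeded that at 5 h by 0.276 percentage points, with no overlap and an exact p of 0.1, the smallest that 3 against 3 allows. Replicate 3 had the highest snoRNA share in all 4 groups, reaching 1.0% in irradiated replicate 3 at 24 h, against 0.575% and 0.769% in the other irradiated 24 h libraries.

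**Figure D1:**
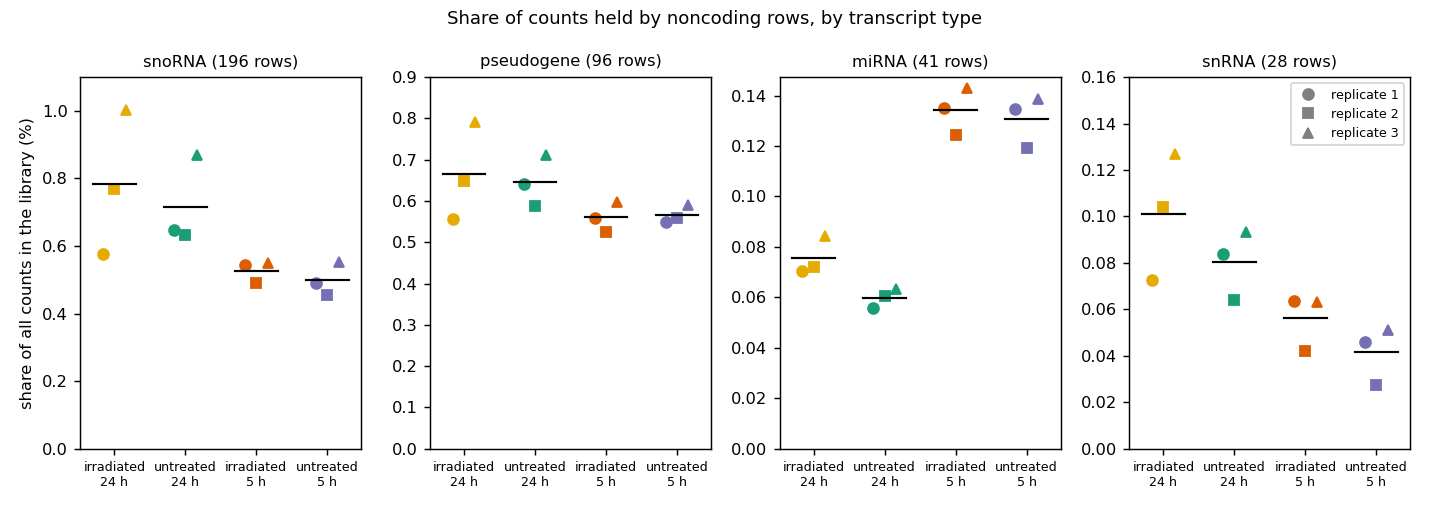
Share of all counts in a library (y axis, %) held by snoRNA, pseudogene, miRNA and snRNA rows; points are libraries, shapes are replicate numbers and bars are means of 3. The miRNA share of the 5 h libraries lies above that of every 24 h library, whereas the snRNA share is lower in untreated 5 h libraries than in untreated 24 h libraries.

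Shares of snRNA and miRNA rows differed between the times in opposite directions, with no overlap. The snRNA share was 0.0838%, 0.064% and 0.0935% in untreated 24 h libraries, against 0.046%, 0.0273% and 0.0511% in untreated 5 h libraries. The miRNA share was 0.0557%, 0.0606% and 0.0633% in untreated 24 h libraries, against 0.135%, 0.119% and 0.139% in untreated 5 h libraries (exact p = 0.1 for both). A single miRNA row, ENSLAFG00000023639 on scaffold 80, held 60.4% of all miRNA counts. Without it the miRNA share was 0.0389 to 0.0516% in untreated 24 h libraries and 0.034 to 0.0392% in untreated 5 h libraries.

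Levels between rows were compared in the authors' FPKM, which divide by row length. The same miRNA row stood highest of the 371 at 5 h, with group means of 11252 FPKM in irradiated and 11157 FPKM in untreated libraries. At 24 h it had 3223 FPKM in irradiated and 1893 FPKM in untreated libraries, below snoU2-30 and SNORD74. SNORD74 reached 3830 FPKM in irradiated 24 h and 3202 FPKM in untreated 24 h libraries. In untreated 24 h libraries SCARNA7 and a U3 row also stood above the miRNA row. That miRNA row is 84 bases long and lies 31 bases from C15orf48. The row snoU2-30 reached 5917 FPKM in irradiated 24 h, 5438 FPKM in untreated 24 h and 3869 FPKM in untreated 5 h libraries, and SCARNA7 reached 2487 FPKM in untreated 24 h and 2032 FPKM in untreated 5 h libraries. Class medians in untreated 5 h libraries were 590 FPKM for scaRNA, 93.6 for C/D snoRNA, 70.7 for snRNA, 68.6 for miRNA, 40.2 for H/ACA snoRNA and 28.9 for pseudogene rows. The minimum was set on raw counts, so short rows needed a higher FPKM to reach it. In those libraries the lowest value was 12.7 FPKM for miRNA and 0.502 FPKM for pseudogene rows, so the order of the classes depends partly on the minimum. The most abundant pseudogene, on scaffold 13 at 48404607 to 48405127, averaged 1596 FPKM in untreated 24 h and 1615 FPKM in untreated 5 h libraries and held 13.3% of pseudogene counts.

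At 5 h after irradiation no noncoding row passed the test between the groups taken as independent libraries. A large share of snRNA and C/D snoRNA rows was called higher only with libraries compared within replicate number. That pairing is not stated in the labels and was chosen from these same data. Counts were tested with edgeR's quasi-likelihood test and Benjamini-Hochberg adjusted p below 0.05 over all rows. It called 0 of 371 noncoding rows, where 1.12% of all 12969 rows tested were called higher and 0.478% lower. At an unadjusted p below 0.05, 54 rows were higher and 6 lower, with no share over all rows set beside them, so these counts support nothing. DESeq2 called 5 of 371 higher and 2 lower, where it called 227 higher and 190 lower among all 16401 rows. The median log2 difference was 0.18 over the 371 rows and 0.00 over all rows, and 279 of 371 were above 0.

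Libraries with the same replicate number deviated together at 5 h, with correlations of 0.374, 0.325 and 0.571 over the rows tested. The labels do not say what the numbers mark, and the block was chosen from these same data. All p-values given with the block rest on that choice. With replicate number as a block, 116 noncoding rows were called higher and 12 lower. In that fit 10.6% of all rows were called higher and 9.92% lower, so the 12 lower calls are a smaller share than the background and the 116 a larger one. The higher calls comprised 24 of 28 snRNAs, 47 of 102 C/D and 26 of 69 H/ACA snoRNAs, 7 of 41 miRNAs, 6 of 13 other snoRNAs and 6 of 96 pseudogenes. The lower calls were 8 pseudogenes, 2 scaRNAs, 1 C/D snoRNA and 1 processed pseudogene.

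Class medians of the log2 difference at 5 h were 0.50 for snRNA, with 27 of 28 rows above 0, 0.28 for C/D and 0.24 for H/ACA snoRNA. They were 0.02 for scaRNA, 0.18 for miRNA and -0.06 for pseudogene rows. Untreated replicate 2 at 5 h had the lowest snRNA share of all libraries. Without it the medians were 0.26 for snRNA, 0.18 for C/D and 0.12 for H/ACA snoRNA. The signs of these 3 medians were the same under each scaling for which medians were computed.

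**Figure D2:**
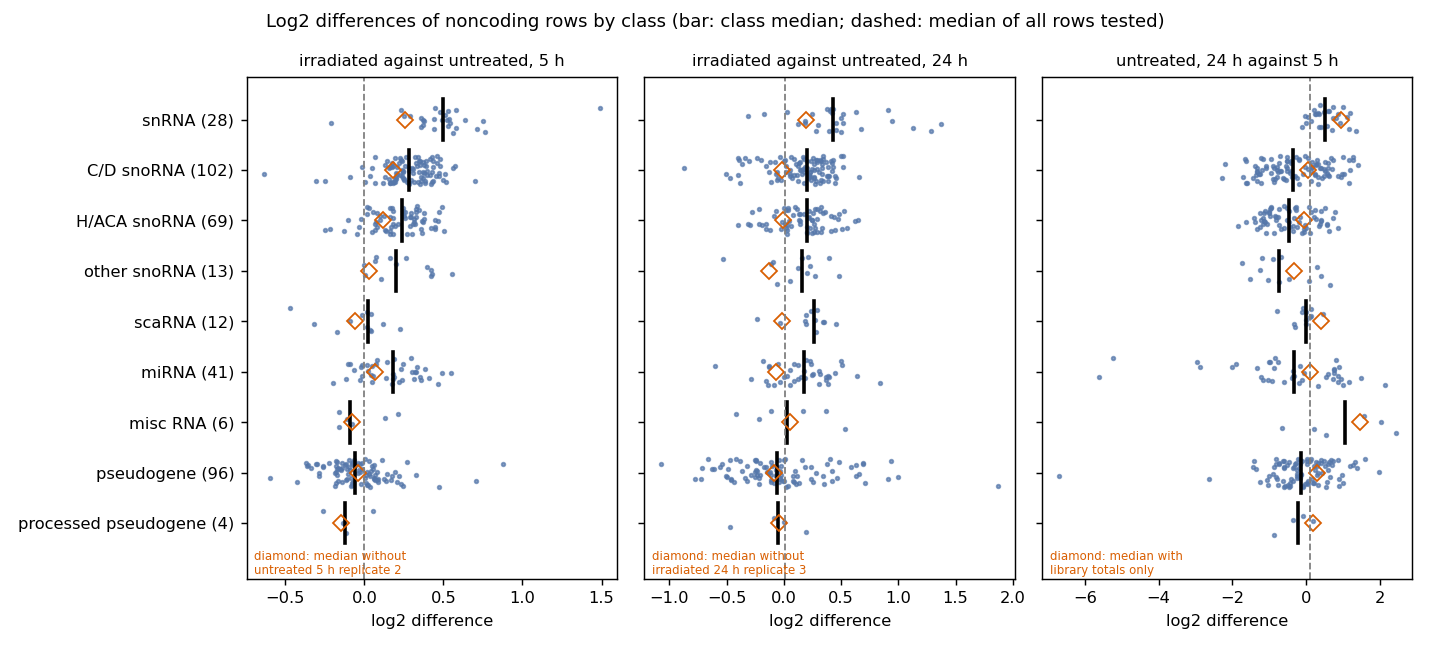
Log2 differences (x axis) of single rows, by class with the number of rows, for irradiated against untreated at 5 h, irradiated against untreated at 24 h, and untreated 24 h against untreated 5 h. Black bars are class medians, dashed lines the median of all rows tested, and orange diamonds the class median without 1 library or, for the times, with library totals only; at 5 h the snRNA median is 0.50, and 0.26 without untreated replicate 2.

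The spliceosomal snRNAs carried the largest class median at 5 h. U1, which recognises the 5′ splice site, had summed CPM (counts scaled to the edgeR library sizes) over its 11 rows of 244, 167.5 and 250 in irradiated 5 h libraries, against 169, 106 and 188 in untreated 5 h libraries. The groups overlapped, yet each irradiated library exceeded the untreated one of its number. The U1 row with most counts, on scaffold 31 at 10187338 to 10187502, had 99.1, 60.8 and 105 CPM in irradiated libraries against 72.6, 40.7 and 74.7 CPM in untreated libraries. Its log2 difference was 0.49 (SE 0.27, edgeR adjusted p = 0.511), and with the block it was 0.49 (SE 0.05, edgeR adjusted p = 1.71e-06).

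The largest log2 difference among the 371 rows at 5 h belonged to a U1 copy on scaffold 60 at 13502906 to 13503070. It had 5.98, 3.39 and 4.95 CPM in irradiated libraries against 1.98, 1.1 and 2.02 CPM in untreated libraries. The groups did not overlap, and the log2 difference was 1.49 (SE 0.29, edgeR adjusted p = 0.0508; with the block 1.48, SE 0.15, adjusted p = 2.09e-06). A second copy, on scaffold 127 at 1674680 to 1674844, had 8.16, 5.48 and 8.78 CPM in irradiated libraries against 4.89, 3.95 and 4.36 CPM in untreated libraries, again with no overlap. Its log2 difference was 0.76 (SE 0.19, edgeR adjusted p = 0.134; with the block 0.75, adjusted p = 0.00023).

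U2, which pairs with the branch point, was called higher with the block in 4 of 4 rows. Its row on scaffold 31 at 24680926 to 24681117 had 95.03, 56.1 and 86.8 CPM in irradiated 5 h libraries against 58.8, 36.7 and 67.8 CPM in untreated 5 h libraries. These ranges overlapped through irradiated replicate 2. U5, which holds the exons together in the spliceosome, was called in 3 of 3 rows, U4 in 1 of 2 and U6 in 1 of 3. The minor spliceosome RNAs U11, U12, U4atac and U6atac, which act on a rare intron class, and U7, which acts in the 3′ processing of histone pre-mRNA, have 1 row each, and each was called higher with the block. U12 had 120.0, 73.2 and 116 CPM in irradiated libraries against 95.5, 43.9 and 101 CPM in untreated libraries.

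**Figure D3:**
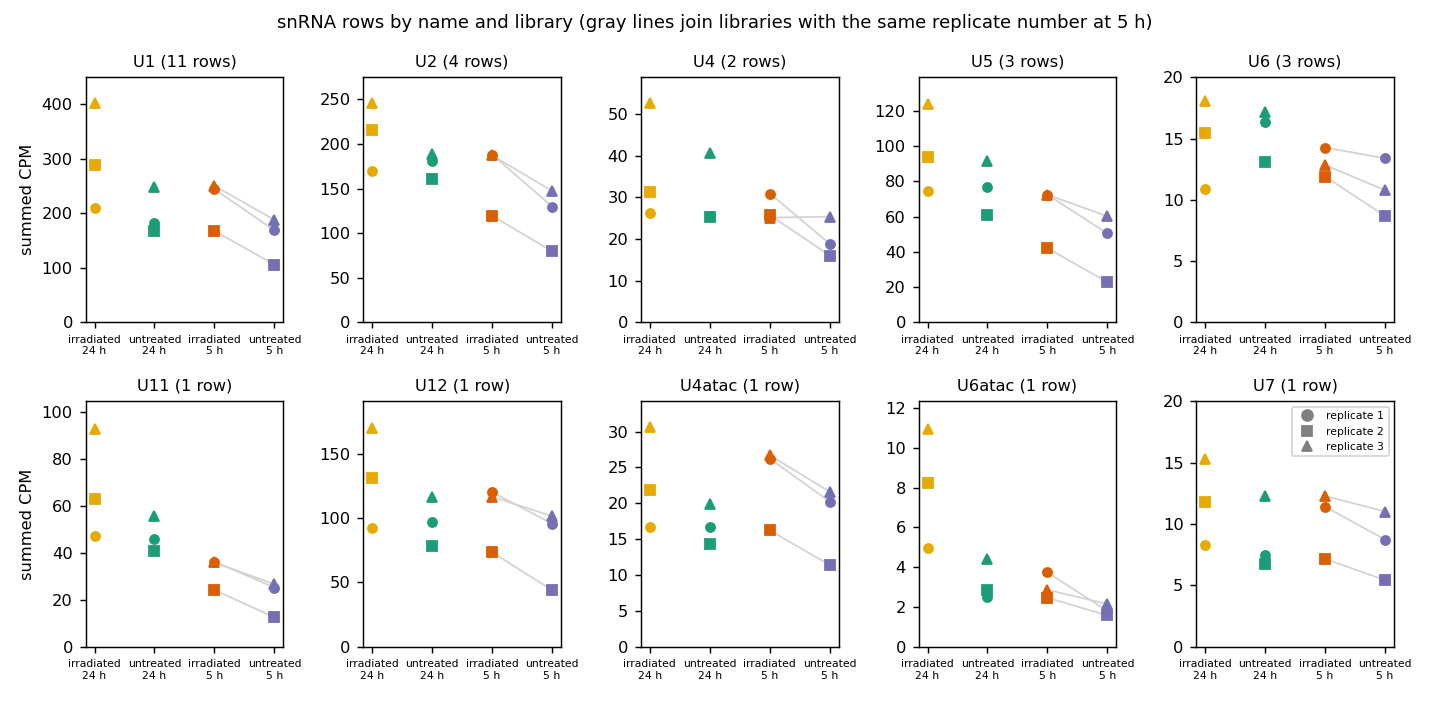
Summed CPM (y axis) of the snRNA rows of each name in the 12 libraries; shapes are replicate numbers and gray lines join irradiated and untreated libraries of the same number at 5 h. Every gray line runs down to the untreated library except that of U4 replicate 3, where irradiated had 25.2 and untreated 25.4 CPM.

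Among the C/D snoRNAs, SNORD78 on scaffold 16 had 17.5, 13.6 and 20.5 CPM in irradiated 5 h libraries against 11.5, 7.71 and 12.5 CPM in untreated 5 h libraries. No library overlapped the other group, and the log2 difference was 0.70 (SE 0.21, edgeR adjusted p = 0.199; with the block adjusted p = 6.73e-06). It lies in a run of 8 SNORD rows near ZBTB37, all 8 of which were called higher with the block, with log2 differences of 0.35 to 0.70. All 8 rows of SNORD25 to SNORD31 and SNORD22 near WDR74 were called likewise, at 0.28 to 0.44. With the block, 35 of 124 snoRNA rows inside a protein-coding row on the same strand were called higher. Of the 72 with no such row, 44 were called higher, and the difference was not tested. Hosts were sought among protein-coding rows only, so the 72 rows may lie in noncoding hosts.

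U3, a C/D snoRNA that acts in the cleavage of the ribosomal precursor, has 3 rows, 1 of which ran against its class. That row, on scaffold 31 at 10217063 to 10217279, had 199.7, 187 and 223 CPM in irradiated 5 h libraries against 234, 360 and 346 CPM in untreated 5 h libraries. Without overlap between the groups, the log2 difference was -0.64 (SE 0.16, edgeR adjusted p = 0.136; with the block -0.62, SE 0.09, adjusted p = 7.64e-05). The other U3 rows had log2 differences of -0.01 and -0.09 (edgeR adjusted p = 0.984 and 0.775; with the block 0.915 and 0.326). At 24 h the first row had 172, 145 and 277 CPM in irradiated libraries against 189, 451 and 445 CPM in untreated libraries, which overlapped (log2 difference -0.87, edgeR adjusted p = 0.215). Of the scaRNAs, 1 of the 2 snoU85 rows, on scaffold 15 at 51353951 to 51354273, had 166, 124 and 168.5 CPM in irradiated 5 h libraries against 176, 216 and 239 CPM in untreated 5 h libraries, with no overlap. Its log2 difference was -0.47 (SE 0.15, edgeR adjusted p = 0.239; with the block adjusted p = 0.000852).

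Pseudogenes showed no common direction at 5 h. One on scaffold 45 at 7311028 to 7312940 had 2.79, 3.32 and 2.61 CPM in irradiated libraries against 1.60, 1.44 and 1.66 CPM in untreated libraries, with no overlap. Its log2 difference was 0.87 (SE 0.17, edgeR adjusted p = 0.0528; with the block adjusted p = 0.00186).

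At 24 h after irradiation 2 U1 copies and 2 pseudogenes rose and 8 pseudogenes fell, while no snoRNA, miRNA or misc_RNA row passed the test. These were 4 higher and 8 lower calls among 369 noncoding rows tested, where 1.8% of all 14373 rows were called higher and 4.94% lower, so both shares of the noncoding rows lie below the background. At an unadjusted p below 0.05, 17 rows were higher and 23 lower, with no share over all rows set beside them. With library totals as the only scaling 4 were called higher and 14 lower; the median of all rows was -0.07 under that scaling and 0.01 with edgeR's factors. Over the 369 rows the median log2 difference was 0.16, with 0.43 for snRNA, 0.26 for scaRNA, 0.20 for both C/D and H/ACA snoRNA, 0.18 for miRNA and -0.06 for pseudogene rows.

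The size of these medians depended most on irradiated replicate 3, the library with the highest snoRNA and snRNA shares. Without it the median of the noncoding rows was -0.03, that of snRNA 0.19, and 0 rows were called. Without any other single library the median of the noncoding rows ran from 0.09 to 0.30. The count of calls without any 1 library ran between 0 and 23, and each of the 12 calls was lost in at least 4 of 6 such fits.

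The U1 copy on scaffold 127 had 9.96, 11.1 and 15.2 CPM in irradiated 24 h libraries against 5.00, 4.65 and 6.76 CPM in untreated 24 h libraries. The groups did not overlap, and the log2 difference was 1.12 (SE 0.21, edgeR adjusted p = 0.0239). The copy on scaffold 60 had 7.98, 9.80 and 15.1 CPM in irradiated libraries against 3.92, 2.95 and 5.62 CPM in untreated libraries, also without overlap (log2 difference 1.37, SE 0.31, edgeR adjusted p = 0.043). Both are minor copies: over all 11 U1 rows the summed CPM were 210.0, 288 and 402 in irradiated libraries against 181.5, 167 and 248 in untreated libraries, which overlapped. These copies also had the largest log2 differences of the U1 rows at 5 h.

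A pseudogene on scaffold 22 at 19917348 to 19917667, inside POLB, the DNA repair polymerase beta, had 12.8, 15.5 and 13.6 CPM in irradiated 24 h libraries against 7.81, 9.97 and 8.62 CPM in untreated 24 h libraries. There was no overlap, and it rose by 0.65 on the log2 scale (SE 0.14, edgeR adjusted p = 0.0338). POLB itself had a log2 difference of 0.37 (SE 0.10, edgeR adjusted p = 0.077).

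Of the 8 pseudogenes that fell, ENSLAFG00000022301 on scaffold 24 at 21537575 to 21538578 had the largest change. It had 5.27, 9.22 and 7.82 CPM in irradiated 24 h libraries against 16.5, 14.6 and 15.3 CPM in untreated 24 h libraries. No library overlapped the other group, and the log2 difference was -1.07 (SE 0.21, edgeR adjusted p = 0.0269). One on scaffold 67 at 1266725 to 1267516, on the strand opposite HLCS, a biotin ligase, had 40.1, 36.1 and 34.1 CPM in irradiated libraries against 66.6, 60.7 and 53.1 CPM in untreated libraries, without overlap (log2 difference -0.72, SE 0.12, edgeR adjusted p = 0.0185). The strand setting of the counting was not given in the sources used here. Whether reads of the row and of HLCS were kept apart is therefore unknown. The other 6 had log2 differences of -0.72 to -0.46 with edgeR adjusted p between 0.0172 and 0.0429, and in each of them the groups did not overlap.

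The miRNA beside C15orf48 and telomerase RNA did not pass the test at 24 h, and the groups separated only in the miRNA. The miRNA beside C15orf48 had 309, 205 and 211 CPM in irradiated 24 h libraries against 110.5, 193 and 99.7 CPM in untreated 24 h libraries, with no overlap (log2 difference 0.84, SE 0.28, edgeR adjusted p = 0.131). C15orf48 itself rose by 0.80 (SE 0.18, edgeR adjusted p = 0.0443). Telomerase RNA had 23.9, 36.6 and 49.99 CPM in irradiated libraries against 19.2, 23.5 and 33.1 CPM in untreated libraries, which overlapped (log2 difference 0.53, SE 0.29, edgeR adjusted p = 0.342).

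The difference between the irradiation effects at 24 h and at 5 h passed the test for 1 noncoding row, the pseudogene ENSLAFG00000029728, where 0.125% of all 15200 rows were called higher and 0.757% lower. It lies on scaffold 104 at 2994600 to 2995637, 2880 bases from ADCY4, which encodes an adenylyl cyclase. At 24 h it had 1.03, 1.70 and 2.33 CPM in irradiated libraries against 0.338, 0.491 and 0.523 CPM in untreated libraries, with no overlap (log2 difference 1.87, SE 0.42, edgeR adjusted p = 0.0428). At 5 h it had 49.5, 37.6 and 54.6 CPM in irradiated libraries against 44.9, 42.6 and 61.4 CPM in untreated libraries, which overlapped (log2 difference -0.08, edgeR adjusted p = 0.894). The interaction was 1.91 (SE 0.40, edgeR adjusted p = 0.0486), and the call was lost in 11 of the 12 fits without 1 library.

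Between untreated 24 h and untreated 5 h libraries the noncoding rows moved far more, as did all rows: 32.6% of the 13445 rows tested were called higher and 30.5% lower. Of the 371 noncoding rows 73 were called higher and 140 lower. How the libraries are scaled decides that split, since the edgeR scaling factors were 1.094 to 1.291 at 24 h and 0.849 to 0.887 at 5 h. With library totals as the only scaling, 147 noncoding rows were called higher and 79 lower, and 7063 rows of the table were called higher against 2234 lower. The median of the noncoding rows lay 0.28 log2 units below that of all rows under both scalings (-0.17 against 0.11, and 0.24 against 0.52). A change of scaling shifts all rows nearly alike, so the equal gap supports nothing. With DESeq2 the medians were -0.27 and 0.22. Where a direction depends on the scaling both values are given.

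The snRNA median lay above that of all rows at 24 h, an order that a change of scaling leaves as it is. Of 28 snRNAs 13 were called higher and 0 lower, with a median log2 difference of 0.52. With library totals 23 were called higher, 0 lower, and the median was 0.94. The H/ACA snoRNAs lay lowest of the larger classes, with 4 of 69 higher and 34 lower (median -0.48), and 17 higher and 21 lower with library totals (median -0.06). C/D snoRNAs had 17 of 102 higher and 43 lower (median -0.37), and 35 higher and 24 lower with library totals (median 0.04). Pseudogenes had 20 of 96 higher and 34 lower (median -0.13), and 42 higher and 15 lower with library totals (median 0.28). Of 41 miRNAs 13 were higher and 18 lower (median -0.32), and 17 higher and 13 lower with library totals (median 0.09).

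Of the 4 Y RNAs, 3 rose at 24 h, under both scalings. The row on scaffold 13 at 27145165 to 27145245 had 19.1, 26.3 and 13.9 CPM in untreated 24 h libraries against 4.10, 4.17 and 3.09 CPM in untreated 5 h libraries. Without overlap between the groups, the log2 difference was 2.42 (SE 0.25, edgeR adjusted p = 6.6e-05). The row on scaffold 10 at 57133416 to 57133517 had 14.4, 23.9 and 10.7 CPM in untreated 24 h libraries against 5.00, 3.92 and 3.38 CPM in untreated 5 h libraries, without overlap (log2 difference 2.04, SE 0.29, edgeR adjusted p = 0.000429). The row on scaffold 1 rose by 1.56 (SE 0.40, edgeR adjusted p = 0.00901), whereas the row on scaffold 91 had 5.24, 8.20 and 11.6 CPM in untreated 24 h libraries against 8.24, 5.33 and 8.58 CPM in untreated 5 h libraries, which overlapped (log2 difference 0.22, edgeR adjusted p = 0.495). In each of the 3 rows that rose, untreated replicate 2 was the highest of the 24 h libraries.

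The remaining misc_RNA rows moved less. Telomerase RNA had 19.2, 23.5 and 33.1 CPM in untreated 24 h libraries against 15.8, 15.7 and 22.4 CPM in untreated 5 h libraries, which overlapped (log2 difference 0.53, SE 0.20, edgeR adjusted p = 0.048). 7SK had 5.24, 5.72 and 5.76 CPM in untreated 24 h libraries against 9.88, 8.59 and 8.61 CPM in untreated 5 h libraries, with no overlap (log2 difference -0.65, SE 0.12, edgeR adjusted p = 0.00183; with library totals -0.24, adjusted p = 0.134). Among the scaRNAs, SCARNA13 rose by 0.44 (SE 0.15, edgeR adjusted p = 0.0282) and SCARNA4 fell by 0.79 (SE 0.21, edgeR adjusted p = 0.0117; with library totals -0.37, adjusted p = 0.189), while SCARNA7, the most abundant, had 549, 719 and 791 CPM in untreated 24 h libraries against 680.1, 755 and 862 CPM in untreated 5 h libraries (log2 difference -0.12, edgeR adjusted p = 0.472; with library totals 0.29, adjusted p = 0.0747).

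The largest fall of any noncoding row was that of the pseudogene ENSLAFG00000029728. It had 0.338, 0.491 and 0.523 CPM in untreated 24 h libraries against 44.9, 42.6 and 61.4 CPM in untreated 5 h libraries, and no libraries overlapped. The log2 difference was -6.71 (SE 0.22, edgeR adjusted p = 8e-07). Its neighbour ADCY4 had 3.89, 2.69 and 4.14 CPM in untreated 24 h libraries against 18.9, 19.3 and 27.0 CPM in untreated 5 h libraries (log2 difference -2.56, SE 0.21, edgeR adjusted p = 2.04e-05), so the pseudogene fell further than the gene beside it on the log2 scale; that gap was not tested.

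A pair of miRNA rows on scaffold 56 fell next. The row at 5382690 to 5382760 had 0.169, 0.231 and 0.0682 CPM in untreated 24 h libraries against 8.84, 6.11 and 8.48 CPM in untreated 5 h libraries (log2 difference -5.63, SE 0.34, edgeR adjusted p = 4.93e-06). The row at 5381980 to 5382089 had 0.101, 0.26 and 0.182 CPM in untreated 24 h libraries against 7.95, 5.58 and 8.38 CPM in untreated 5 h libraries (log2 difference -5.24, SE 0.31, edgeR adjusted p = 4.12e-06). Neither pair of groups overlapped, and no protein-coding row of the tables lies within 959262 bases. At 24 h these 2 rows had too few counts to be tested between irradiated and untreated libraries.

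The miRNA beside C15orf48 had 110.5, 193 and 99.7 CPM in untreated 24 h libraries against 1105, 961 and 1168 CPM in untreated 5 h libraries. There was no overlap, and it fell by 2.96 on the log2 scale (SE 0.24, edgeR adjusted p = 2.04e-05). C15orf48 fell by 2.68 (SE 0.18, edgeR adjusted p = 6.87e-06), and it had 201.5, 288 and 193 CPM in untreated 24 h libraries against 1557, 1279 and 1654 CPM in untreated 5 h libraries. A miRNA inside KIAA0930 on scaffold 102 had 0.541, 0.347 and 0.546 CPM in untreated 24 h libraries against 3.69, 3.51 and 3.80 CPM in untreated 5 h libraries, without overlap (log2 difference -2.89, SE 0.26, edgeR adjusted p = 3.02e-05); KIAA0930 fell by 3.35 (SE 0.11, edgeR adjusted p = 8e-07).

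Pseudogenes moved in both directions. On scaffold 24 at 19091992 to 19092905, 66268 bases from SH3BGRL, a row had 41.5, 44.2 and 33.5 CPM in untreated 24 h libraries against 254, 211 and 296.5 CPM in untreated 5 h libraries, with no overlap (log2 difference -2.63, SE 0.16, edgeR adjusted p = 4.56e-06). On scaffold 16 at 50982799 to 50985375 a row had 5.34, 7.22 and 4.39 CPM in untreated 24 h libraries against 1.46, 1.63 and 1.37 CPM in untreated 5 h libraries, also without overlap (log2 difference 1.96, SE 0.23, edgeR adjusted p = 0.000136). A miRNA 467 bases from POLR3D, a subunit of RNA polymerase III, had 11.5, 8.75 and 27.4 CPM in untreated 24 h libraries against 4.14, 3.01 and 4.10 CPM in untreated 5 h libraries and rose by 2.13 (SE 0.40, edgeR adjusted p = 0.00177), while POLR3D had a log2 difference of -0.30 (edgeR adjusted p = 0.0206; with library totals 0.12, adjusted p = 0.338).

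**Figure D4:**
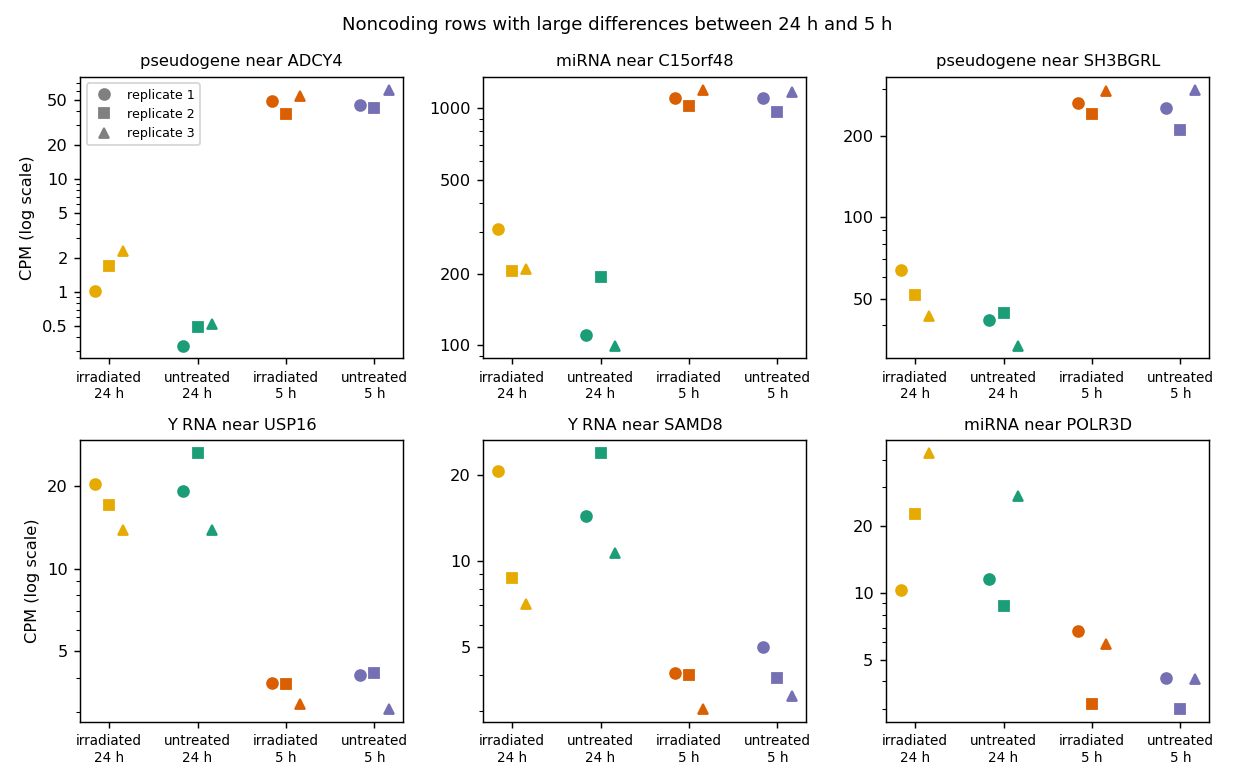
CPM on a log scale (y axis) of 6 noncoding rows in the 12 libraries; points are libraries and shapes are replicate numbers. In the 3 upper rows every 24 h library lies below every 5 h library, and in the 3 lower rows above, for irradiated and untreated libraries alike.

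At several loci snoRNA rows that lie together moved in the same direction. With rows on 1 strand no more than 10000 bases apart taken as a locus, 21 loci held at least 3 snoRNA rows, 92 rows in all. Near ZBTB37, on scaffold 16 at 27354222 to 27357494, all 8 SNORD rows rose at 24 h, by 0.93 to 1.39 on the log2 scale. SNORD74 there had 212, 150.2 and 261 CPM in untreated 24 h libraries against 109, 53.9 and 104 CPM in untreated 5 h libraries, without overlap (log2 difference 1.27, SE 0.28, edgeR adjusted p = 0.00391).

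At 7 of the 21 loci every row was called lower. The 8 rows at TAF1D, 1 inside it and 7 at 1781 to 4753 bases from it, fell by 0.75 to 1.28, with TAF1D, which encodes a subunit of the RNA polymerase I factor SL1, at -0.61 (SE 0.12, edgeR adjusted p = 0.00257; with library totals -0.19, adjusted p = 0.223). The 3 SNORD19 rows inside GNL3, the nucleolar protein nucleostemin, had log2 differences of -2.29 to -1.65 and GNL3 -2.55 (SE 0.13, edgeR adjusted p = 2.37e-06). One of them, SNORD19B, had 1.45, 1.18 and 1.25 CPM in untreated 24 h libraries against 6.98, 5.14 and 6.34 CPM in untreated 5 h libraries, with no overlap. Of the 5 SNORD18 and SNORD16 rows at RPL4, 4 lie inside it and 1 at 233 bases, and of the 4 SNORD58 rows at RPL17, 3 lie inside it and 1 at 93 bases. The rows at RPL4 had log2 differences of -1.70 to -1.33, and those at RPL17 -1.34 to -0.95, each of them called. RPL4 itself was called lower with library totals, at -0.28 (edgeR adjusted p = 0.0311). RPL17 had -0.16 (edgeR adjusted p = 0.245) and, with library totals, 0.26 (edgeR adjusted p = 0.0657). With library totals 5 of 5, 4 of 4 and 3 of 3 rows were still called lower at RPL4, RPL17 and GNL3, and 7 of 8 at TAF1D. The remaining loci lost most calls under that scaling. There 2 of 4 SNORD45 rows inside RABGGTB and 1 of 3 SNORA2 rows inside KANSL2 were called lower. Of the SNORD42 and snoZ17 rows inside a host without a symbol on scaffold 47, 0 of 4 were.

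HSPA8 differed in sign from the snoRNAs inside it. The 3 SNORD14 rows inside HSPA8, the constitutive HSP70 chaperone, had log2 differences of 0.43 to 0.60, of which 1 was called higher, whereas HSPA8 had -0.50 (edgeR adjusted p = 0.0075). With library totals 3 of 3 were called higher and HSPA8 had -0.08 (edgeR adjusted p = 0.561). In and outside loci, 5 of the 124 snoRNA rows inside a host were called higher and 71 lower, with a median of -0.69, and of their 69 hosts 2 were higher and 53 lower, with a median of -0.50. The 72 snoRNA rows with no protein-coding host on the same strand had 18 higher and 14 lower calls and a median of 0.23. Noncoding hosts were not sought. With library totals these medians were -0.27 for hosted rows, -0.08 for hosts and 0.64 for rows with no protein-coding host. The difference between hosted and other rows was not tested.

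**Figure D5:**
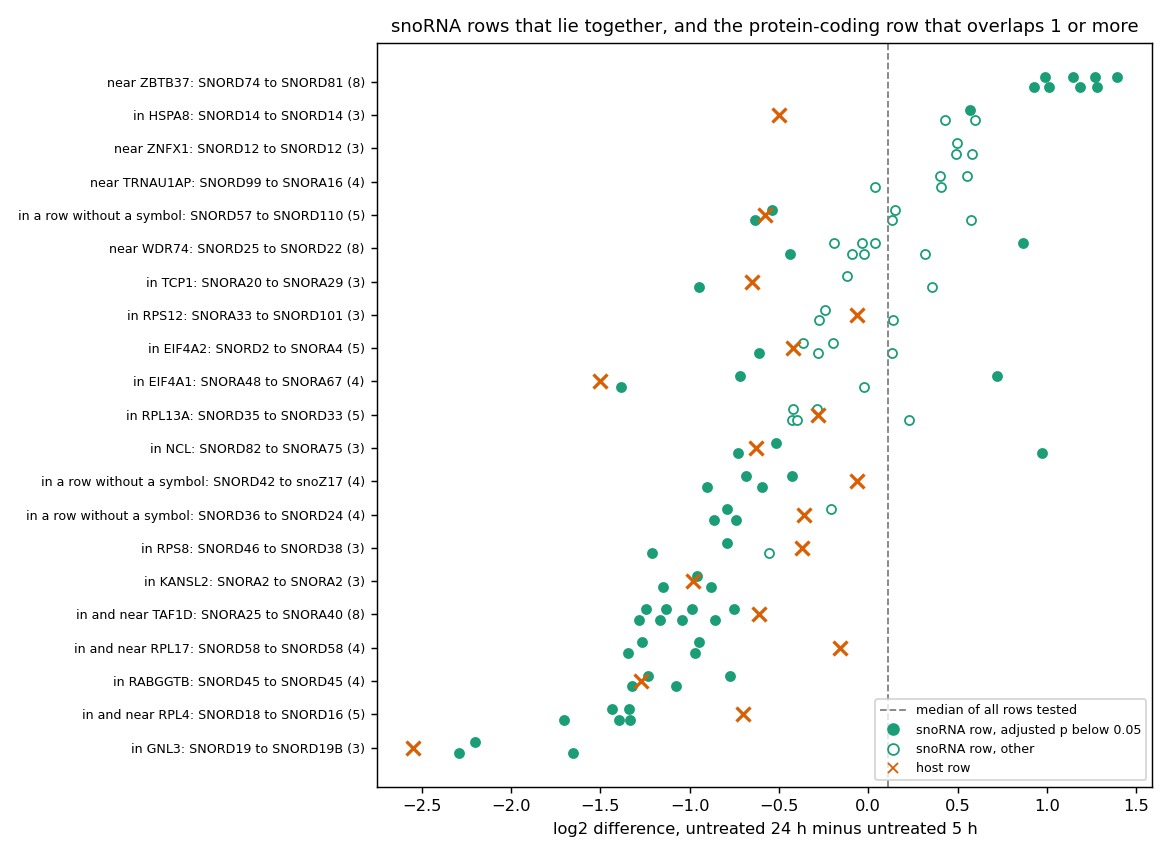
Log2 difference, untreated 24 h minus untreated 5 h (x axis), of each snoRNA row in the 21 loci, with the number of rows in brackets and points offset vertically to keep them apart; filled circles passed the test, crosses are the protein-coding row that overlaps at least 1 row of the locus, and the dashed line is the median of all rows tested. The 8 rows near ZBTB37 lie at 0.93 to 1.39 and the 3 rows inside GNL3 at -2.29 to -1.65.

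The miRNA rows formed 4 loci of at least 2 rows. The 6 rows on scaffold 11 at 14396433 to 14397236 had log2 differences of 0.32 to 0.93, of which 5 were called higher. The 3 rows on scaffold 26 near ZSWIM4 had log2 differences of -2.02 to -1.22 and all were called lower. At the first of these the row at 14397152 had 12.6, 9.91 and 14.3 CPM in untreated 24 h libraries against 7.80, 4.36 and 7.77 CPM in untreated 5 h libraries, and at the second the row at 29291370 had 1.93, 2.89 and 3.48 CPM in untreated 24 h libraries against 13.4, 11.4 and 9.98 CPM in untreated 5 h libraries. A pair on scaffold 12 near DALRD3 had log2 differences of 0.85 and 1.0, both called.

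Proteins that bind or make these RNAs were read from lists. Of 6 snoRNP core proteins found, all 6 were lower in untreated 24 h than in untreated 5 h libraries, with a median log2 difference of -1.02 (-0.61 with library totals, 6 of 6 lower). DKC1, the pseudouridine synthase of H/ACA particles, fell by 1.78, and NOP58, a core protein of C/D particles, fell by 1.71. After irradiation 0 of 6 were called at 5 h and 4 were called lower at 24 h, namely NHP2 at -0.76 (edgeR adjusted p = 0.0152), FBL, the C/D methyltransferase, at -0.51 (edgeR adjusted p = 0.0187), NOP58 at -0.51 and DKC1 at -0.40. All 5 signal recognition particle proteins found fell at 24 h in untreated libraries, with a median of -0.85 (-0.43 with library totals, 4 of 5 lower). Of 12 miRNA processing proteins 3 were higher and 7 lower in that comparison (4 higher and 2 lower with library totals), and AGO4 fell by 1.13 after irradiation at 24 h (edgeR adjusted p = 0.00164). Of 20 RNA polymerase III subunits and factors 7 were higher and 8 lower between the times, with a median of -0.12 (11 higher and 5 lower with library totals, median 0.30), and after irradiation GTF3C6 alone was called, at 24 h and lower. Of 11 RNase P and MRP proteins 2 were higher between the times (8 with library totals) and RPP14 was higher after irradiation at 5 h, by 0.72 (edgeR adjusted p = 0.0129). With the block at 5 h POP1 was also called, lower, as were AGO3 and DROSHA among miRNA processing proteins, higher. Of 7 partners of 7SK 2 were higher and 3 lower between the times (4 higher and 2 lower with library totals). After irradiation none was called at 24 h, and at 5 h none without the block and 3 higher with it, namely HEXIM1 (0.37, edgeR adjusted p = 2.73e-05), CCNT2 (0.18, adjusted p = 0.0114) and CCNT1 (0.16, adjusted p = 0.0254). The 1 row found for Ro and La was called higher between the times with library totals alone, with a log2 difference of 0.44. A list of miRNAs linked to p53 matched 0 rows, since the miRNA rows carry no names.

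Markers of blood cell types changed beside these results. The summed level of 10 B cell markers was 61.3 to 79.3 CPM in irradiated 24 h libraries against 407 to 499 CPM in untreated 24 h libraries, and 192 to 251 CPM in irradiated 5 h libraries against 302 to 367 CPM in untreated 5 h libraries. At 24 h 10 of 10 were called lower, as were 4 of 6 NK markers and 3 of 7 T cell markers, and 2 of 4 monocyte and 3 of 4 platelet markers were called higher. At 5 h 1 of 10 B cell markers was called lower without the block and 10 of 10 with it. With the block at 5 h, 5 of 7 T cell and 5 of 6 NK markers were called lower, and 3 of 4 monocyte markers higher and 1 lower. The 6 neutrophil markers summed to 28.5 to 44.1 CPM in untreated 24 h libraries against 138 to 169 CPM in untreated 5 h libraries, with 5 of 6 lower. In irradiated 5 h libraries they summed to 210 to 232 CPM, with 1 of 6 called higher. With the block at 5 h 2 of 6 were called higher, S100A8 and S100A9, and 2 lower, AQP9 and MPO. Between the times 4 of 10 B cell, 2 of 7 T cell and 3 of 6 NK markers were called higher. Of 4 platelet markers 2 were lower, and of 4 monocyte markers 1 was higher and 1 lower. With library totals 8 B cell, 7 T cell, 6 NK and 1 monocyte marker were higher and 1 platelet marker lower. No marker row of these lists was at 0 counts. The part of cell composition in the noncoding results was not tested.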

How the data were processed

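Stranded libraries were made from rRNA-depleted total RNA, per the labels' protocols. The authors deposited raw counts and FPKM per annotated row for each library, in 1 table per time. Per the file headers, coordinates are on assembly L_africana_Jul_2009, and whether they start at 0 or 1 is not stated. Aligner, counter and strand setting were not given in the sources used here.

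Counts were tested with edgeR 4.0.16 (R 4.3.3; TMM, filterByExpr, quasi-likelihood F test, Benjamini-Hochberg 0.05 over all rows tested), after a test on simulated data. The interaction and the printed CPM used all 12 libraries, and SE is the log2 difference over the root of F. FPKM served for levels only. Alternatives were RLE scaling, scaling on protein-coding rows, no filter, DESeq2 1.42.0, a replicate block, 1 fit of all libraries, leaving out each library and, added after seeing the data, library totals only.

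Replicate numbers come from the labels. Whether they pair libraries is not stated there. At 5 h they were taken to, because each correlation of same-numbered deviations was above 0.1 over the rows tested. Over the 15200 rows of the 12-library fit these correlations were 0.138, 0.089 and 0.34. At 24 h and between times the numbers were not taken to pair libraries. The rows described and the lists were chosen with earlier results of these data known. Rows named are the 5 with most counts in a type, all called rows up to 12 or else the 6 largest changes each way, and U, Y, 7SK, telomerase and scaRNA rows. SNORD, miRNA and pseudogene rows described at 5 h or by locus beyond these were chosen after their values were seen.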

Additional observations from a re-analysis of the deposited data

Results flagged for a closer look

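The effect of irradiation on the pseudogene ENSLAFG00000029728 differed between 24 h and 5 h by the interaction test. The difference was 1.91 on the log2 scale (SE 0.40, edgeR adjusted p = 0.0486), with 3 of 3 irradiated libraries above every untreated library at 24 h and overlapping groups at 5 h. Its level at 24 h was at most 2.33 CPM. ADCY4, 2880 bases away, had an interaction of 0.44 (edgeR adjusted p = 0.744).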

How the results depend on the processing

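At 5 h, where the main fit called 0 noncoding rows, library totals gave 1, no filter 1, DESeq2 7 and the replicate block 128, and leaving out single libraries gave 0 to 2. At 24 h, against 12, DESeq2 gave 26, 1 fit of all 12 libraries 23, and leaving out single libraries 0 to 23. For the interaction, against 1, RLE scaling gave 2, library totals 2, DESeq2 2, scaling on protein-coding rows 0, no filter 0, and leaving out single libraries 0 to 2. Between the times all counts were within 1.5 times the 213 called, but higher and lower calls changed places with library totals (147 higher and 79 lower). The difference in the share of counts ran from 0.00125 to 0.0893 percentage points at 5 h, from -0.0711 to 0.294 at 24 h and from 0.158 to 0.355 between the times when single libraries were left out. Same-numbered libraries did not all deviate together at 24 h (correlations 0.118, -0.396 and 0.648) or between the times (0.162, 0.038 and -0.273). The replicate block there gave 13 and 232 calls, and 1 for the interaction. All 12 rows named for the largest changes between the times kept their calls in 6 of 6 fits without 1 library. The cause of these shifts was not tested. Rows near 600 summed counts hold few counts a library, which limits what their fits can show.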
